A study of Mus musculus with 16 samples.

Results

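Levels of 7 voltage-gated channel genes were followed in the cochlea of DBA/2J mice: the potassium channel genes Kcna1, Kcna2, Kcnc1 and Kcnd2, the sodium channel genes Scn1a and Scn8a, and the calcium channel subunit gene Cacnb4. They were read from 27 probes of an Affymetrix mouse array, every probe whose only gene symbol in the array annotation was one of the 7, among 45101 probes and 18194 genes with such a probe. The groups were 6 cochleae of mice treated with MET and VPA together (M+V), 5 control cochleae and 5 cochleae of untreated mice at 4 weeks of age. M+V mice received daily subcutaneous L-methionine (MET, a methyl donor, 500 mg/kg) and valproic acid (VPA, an inhibitor of histone deacetylases, 300 mg/kg) for 8 weeks, and control mice received the vehicle, 0.1 M sodium bicarbonate, for the same 8 weeks; both were 12 weeks old when sampled. All mice were male DBA/2J, an inbred strain that carries mutant Cdh23 and Fscn2 alleles and loses hearing progressively, so every group shares that background. Each array holds the whole left cochlea of 1 mouse, so the values are tissue averages over neurons, glia, hair cells and supporting cells, and fewer cells of a type cannot be told apart from less RNA per cell. Kcnd2, Scn1a and Cacnb4 were chosen by these very measurements, as channel genes with lower levels after M+V than after vehicle. Their values are therefore a description and carry no test in any comparison, since the comparisons share arrays; tests are given for Kcna1, Kcna2, Kcnc1 and Scn8a.

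Voltage-gated channels set how a neuron turns a current into spikes. Sodium channels gathered at the axon initial segment and the nodes of Ranvier start and carry the spike, potassium channels end it and set how soon the next one can follow, and calcium channels couple it to transmitter release. Auditory neurons are known for firing fast and in time with the sound wave, which in the brainstem and the spiral ganglion relies on low-threshold Kv1 channels and fast Kv3 channels. Kcna1 and Kcna2 encode Kv1.1 and Kv1.2, which sit beside the nodes of myelinated axons, Kcnc1 encodes Kv3.1 and Kcnd2 encodes Kv4.2, an A-type channel of dendrites that is also abundant in cerebellar granule cells. Scn1a and Scn8a encode Nav1.1 and Nav1.6, and Cacnb4 encodes the beta4 subunit of high-voltage-activated calcium channels.

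MET and VPA act on DNA methylation and histone acetylation, so the sequence in front of the start site of 3 members is shown with its CpG dinucleotides, the sites at which DNA is methylated, in capitals. The sequences are RefSeq's, of build GRCm38.p6, given 5′ to 3′ on the gene's strand as the 250 bases before the annotated start. Kcnd2 and Scn1a are shown as members that were lower after treatment and whose entries differ in CpG content, and Kcnc1 as a member with one of the highest contents.
Kcnd2, chr6:21215096-21215345, plus strand: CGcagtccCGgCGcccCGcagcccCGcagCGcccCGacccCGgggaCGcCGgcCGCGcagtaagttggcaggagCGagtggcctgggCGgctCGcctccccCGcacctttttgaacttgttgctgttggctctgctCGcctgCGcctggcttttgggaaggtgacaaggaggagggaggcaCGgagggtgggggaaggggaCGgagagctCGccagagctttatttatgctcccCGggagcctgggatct
Scn1a, chr2:66440838-66441087, minus strand: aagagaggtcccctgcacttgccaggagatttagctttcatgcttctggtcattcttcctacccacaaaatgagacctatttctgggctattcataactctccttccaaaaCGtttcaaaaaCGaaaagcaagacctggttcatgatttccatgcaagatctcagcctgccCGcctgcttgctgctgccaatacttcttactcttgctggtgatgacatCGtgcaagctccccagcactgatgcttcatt
Kcnc1, chr7:46396218-46396467, plus strand: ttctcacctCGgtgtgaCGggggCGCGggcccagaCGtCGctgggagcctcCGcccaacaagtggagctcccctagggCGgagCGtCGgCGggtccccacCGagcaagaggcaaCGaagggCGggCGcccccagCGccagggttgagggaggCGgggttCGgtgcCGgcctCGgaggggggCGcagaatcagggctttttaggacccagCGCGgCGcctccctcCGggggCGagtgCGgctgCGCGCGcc
The stretch held 22 CpG in Kcnd2, 4 in Scn1a and 30 in Kcnc1, against a median of 6 over all 32851 RefSeq start sites in the same table, of which 14.8% had as many CpG as Kcnd2 or more, 62.2% as many as Scn1a or more and 5.94% as many as Kcnc1 or more. Kcna2 had 18. Scn8a had 30 and 9 at its 2 start sites, and Cacnb4 had 37, 23 and 4 at its 3 start sites, of which only the one with 4 lay under the median. Methylation was not measured on these arrays. Kcna1 was not among the 6 members with an entry.

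A probe was tested when its signal reached the array median, a log2 signal of 6.90, in every array of at least 1 group. Of the 27 probes 16 did so, from 6 of the 7 genes, and 21391 probes did so in all. Scn1a 1450120_at and Cacnb4 1452089_at passed through the control group only, where their means were highest. None of the 4 probes of Kcnd2 passed. The most brightly hybridised probe of each gene, called the lead probe here, carries the values below unless another is named; signals of different probes were not set against each other, since they depend on the probe.

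The arrays differed in ways that bear on these genes. The cochlear genes Coch and Otos were bright in every group (log2 signals of 15.0 and 14.5 in M+V-treated, 14.9 and 14.5 in control and 15.1 and 14.8 in 4-week cochleae), and all 12 general neuron markers passed the filter. Among the 10 hair cell genes on the array 6 passed, with Myo6 at a mean of 10.84, while the outer hair cell gene Slc26a5 stayed under the array median at a mean of 2.80. Of the glial marker lists, 6 of 7 astrocyte and 7 of 11 oligodendrocyte genes on the array passed. Mog, Opalin, Hapln2, Olig2 and Slc7a10 did not. Whether the signals of the passing genes came from brain tissue or from cells of the cochlea was not tested. The bioB hybridisation control, which the protocol adds in a fixed amount, lay at 9.02 to 9.74 on 8 arrays (all 4-week arrays, control replicate 1 and M+V replicates 1 and 2) and at 5.98 to 6.36 on the other 8. Whether another step differed with it cannot be told from the labels, and the 4-week group has no array of the low bioB level.

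Kcnd2 had the widest difference between M+V-treated and control cochleae. Its log2 signals were 5.20, 4.52, 6.55, 6.90, 6.28 and 7.80 in M+V replicates 1 to 6, against 8.54, 8.56, 7.64, 6.25 and 8.03 in control replicates 1 to 5. The 4-week cochleae lay close together, at 6.41, 6.22, 6.89, 6.66 and 6.20. Control replicates 1, 2, 3 and 5 were thus above every 4-week array, control replicate 4 was among the 4-week values, M+V replicates 1 and 2 were below every other array, and M+V replicate 6 was among the control values. The mean was 6.21 ± 1.18 in M+V-treated (SD, n = 6), 7.80 ± 0.95 in control (SD, n = 5) and 6.48 ± 0.30 in 4-week cochleae (SD, n = 5). The difference was -1.59 on the log2 scale for M+V minus control (SE 0.53), -0.27 for M+V minus 4 weeks (SE 0.53) and 1.33 for control minus 4 weeks (SE 0.55), so the M+V mean stood nearer to the 4-week than to the control mean. With the bioB level as a block M+V minus 4 weeks was -0.88 and control minus 4 weeks 0.59. Over the high-bioB arrays M+V minus 4 weeks was -1.62. Of the other 3 Kcnd2 probes, 1450773_at and 1422834_at differed the same way between M+V-treated and control cochleae, by -1.85 (SE 0.54) and -1.32 (SE 0.63). The dimmest, 1447764_at, with a mean of 2.30 in M+V-treated and 1.80 in control cochleae, differed by 0.50 (SE 0.63). The mean of the lead probe over all 16 arrays, 6.79, was near the array median of 6.90.

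Scn1a and Cacnb4, the other 2 picked members, had smaller differences. Scn1a had log2 signals of 9.26, 8.24, 9.63, 9.36, 9.55 and 9.10 in M+V replicates 1 to 6, against 10.31, 10.00, 10.14, 9.10 and 10.03 in control replicates 1 to 5, and of 9.75, 9.25, 9.81, 8.83 and 9.90 in the 4-week replicates. All M+V values lay under 4 of the 5 control values, and control replicate 4 lay beneath 5 of the 6 M+V values, so the ranges overlapped through that 1 array. The mean was 9.19 ± 0.50 in M+V-treated, 9.91 ± 0.47 in control and 9.51 ± 0.46 in 4-week cochleae (SD, n = 6, 5 and 5), a difference of -0.72 for M+V minus control (SE 0.26). The second passing Scn1a probe, 1450120_at, differed by -1.11 (SE 0.36), and the third, 1441728_at, which did not pass, by -0.22 (SE 0.73). M+V minus 4 weeks came to -0.32 (SE 0.26) and control minus 4 weeks to 0.40 (SE 0.27) for the lead probe.

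Cacnb4 followed Scn1a from array to array. Its log2 signals were 8.64, 8.19, 9.39, 8.99, 9.18 and 8.58 in M+V replicates 1 to 6, against 9.63, 9.48, 9.68, 8.67 and 9.26 in control replicates 1 to 5, and 9.12, 8.87, 9.25, 8.81 and 9.49 in the 4-week replicates. The ranges overlapped, again with control replicate 4 as the lowest control array. The mean was 8.83 ± 0.44 in M+V-treated, 9.34 ± 0.41 in control and 9.11 ± 0.28 in 4-week cochleae (SD, n = 6, 5 and 5). M+V minus control was -0.52 (SE 0.22) for the lead probe, -0.52 (SE 0.25) for 1428928_at and -1.30 (SE 0.37) for 1452089_at, the least bright of the 3. M+V minus 4 weeks was -0.28 (SE 0.22) and control minus 4 weeks 0.24 (SE 0.23).

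**Figure D1:**
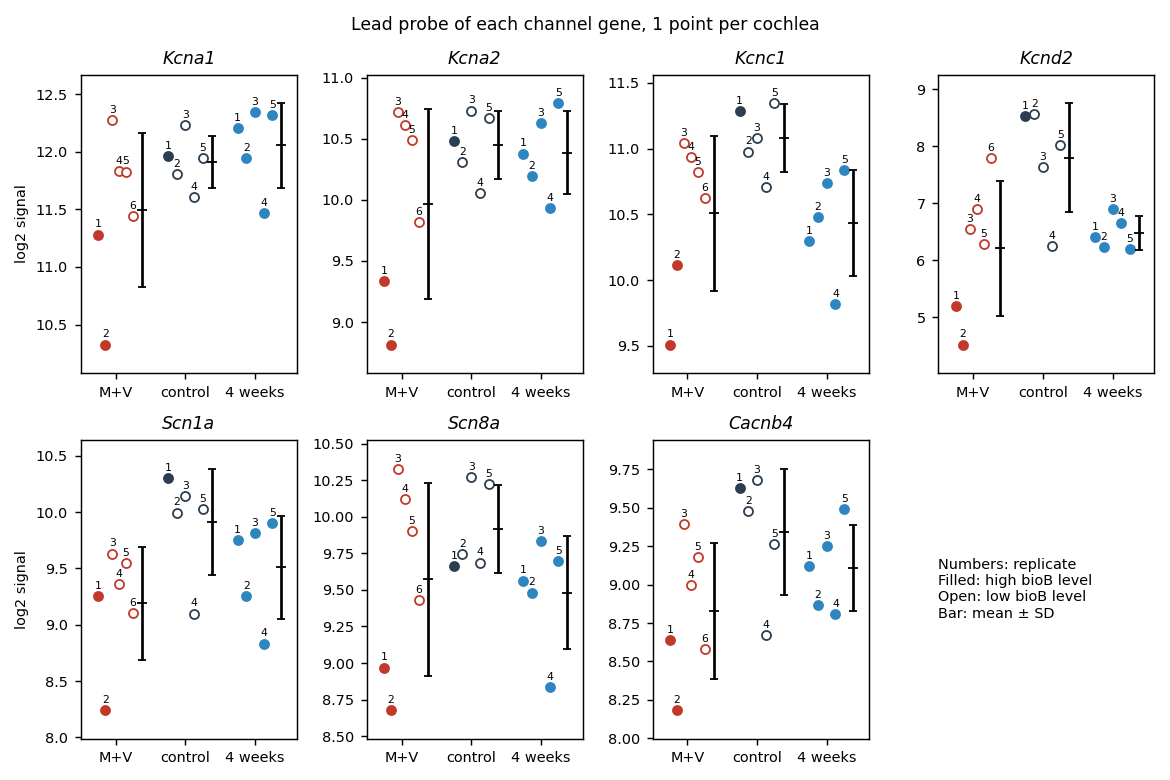
Log2 signal of the lead probe of each channel gene in each cochlea, with M+V, control and 4 weeks from left to right; numbers give the replicate, filled points the high and open points the low level of the bioB control, and bars the mean ± SD. M+V replicates 1 and 2 are low in most panels, and control replicate 4 is the lowest control array for every gene except Scn8a.

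None of the 4 members tested passed the threshold between M+V-treated and control cochleae. By limma with Benjamini-Hochberg adjustment over the 21391 probes, 0 of Kcna1, Kcna2, Kcnc1 and Scn8a were called at an adjusted p under 0.05, where the background over all probes was 0% higher and 0% lower; 1 of the 4 lead probes, that of Kcnc1, had an unadjusted p under 0.05 and was lower, as were 5.13% of all tested probes. The ranges of M+V-treated and control cochleae overlapped for every probe of the 7 genes, and over all tested probes 0.575% lay lower without overlap. The methods' t-test called 0 of the 4 as well.

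Kcnc1, the fast delayed rectifier of rapidly firing neurons, had log2 signals of 9.51, 10.11, 11.04, 10.94, 10.82 and 10.63 in M+V replicates 1 to 6, against 11.29, 10.98, 11.08, 10.70 and 11.34 in control replicates 1 to 5. The 4-week replicates had 10.30, 10.48, 10.74, 9.82 and 10.84. M+V replicates 1 and 2 lay well under the control range, replicates 3, 4 and 5 within it and replicate 6 just under it. M+V minus control was -0.57 (SE 0.25, limma p = 0.0347, adjusted p = 0.48; exact permutation p = 0.0649, two-sided), and -0.37 when M+V replicate 1 alone was left out. Control minus 4 weeks was 0.64 (SE 0.26, adjusted p = 0.268). Control replicates 1, 2, 3 and 5 were above every 4-week array. M+V minus 4 weeks was 0.07 (SE 0.25, adjusted p = 0.895).

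Kcna1 and Kcna2, whose Kv1 subunits assemble with each other, had low values on the same 2 M+V arrays. Kcna1 had 11.28, 10.33, 12.27, 11.83, 11.83 and 11.44 in M+V replicates 1 to 6, against 11.96, 11.81, 12.23, 11.61 and 11.94 in control replicates 1 to 5, and 12.20, 11.94, 12.35, 11.47 and 12.32 at 4 weeks. M+V minus control was -0.41 (SE 0.26, adjusted p = 0.618 by limma), M+V minus 4 weeks -0.56 (SE 0.26, adjusted p = 0.224) and control minus 4 weeks -0.14 (SE 0.27, adjusted p = 0.871). Without M+V replicate 2 alone, Kcna1 came to -0.18 for M+V minus control and -0.32 for M+V minus 4 weeks. That of Kcna1 was the one lead probe of the 4 with an unadjusted limma p under 0.05 in M+V minus 4 weeks, where 11.2% of all tested probes were lower at that level and 3.20% were called lower and 2.08% higher after adjustment.
Kcna2 had 9.34, 8.82, 10.72, 10.61, 10.49 and 9.82 in M+V replicates 1 to 6, against 10.48, 10.31, 10.73, 10.05 and 10.67 in control replicates 1 to 5, and 10.38, 10.19, 10.62, 9.93 and 10.79 at 4 weeks. Replicates 3, 4 and 5 of M+V lay inside the control range and replicates 1, 2 and 6 under it. M+V minus control was -0.48 (SE 0.29), M+V minus 4 weeks -0.42 (SE 0.29) and control minus 4 weeks 0.06 (SE 0.31), with adjusted p of 0.596, 0.426 and 0.956 by limma. Without M+V replicate 2 alone, Kcna2 came to -0.25 for M+V minus control and -0.19 for M+V minus 4 weeks.

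Scn8a, which encodes the main sodium channel of mature nodes of Ranvier, had 8.97, 8.68, 10.33, 10.12, 9.90 and 9.43 in M+V replicates 1 to 6, against 9.66, 9.75, 10.27, 9.69 and 10.22 in control replicates 1 to 5, and 9.56, 9.48, 9.83, 8.83 and 9.70 at 4 weeks. The highest Scn8a value of all 16 arrays was that of M+V replicate 3 and the lowest that of M+V replicate 2, so the M+V range enclosed both others. M+V minus control was -0.35 (SE 0.27, adjusted p = 0.691 by limma), M+V minus 4 weeks 0.09 (SE 0.27, adjusted p = 0.88) and control minus 4 weeks 0.44 (SE 0.28, adjusted p = 0.53). Leaving out M+V replicate 2 alone gave Scn8a -0.17 for M+V minus control and 0.27 for M+V minus 4 weeks. In control minus 4 weeks 0 of the 4 tested members were called, against 0.369% of all probes called higher and 1.01% called lower; of the 4 lead probes that of Kcnc1 alone was higher at an unadjusted p under 0.05, as were 6.07% of all tested probes.

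The lead probes of all 7 genes were lower on average in M+V-treated than in control arrays. For M+V minus control all 7 lead probes and all 16 probes that passed the filter were under 0, with a median of -0.52. Kcnd2, Scn1a and Cacnb4 were picked for lower levels in this comparison, so their signs follow from that choice. Scn1a 1450120_at and Cacnb4 1452089_at are among the 16 only through their control arrays, so the filter favoured a difference under 0 for them. Leaving out the 3 picked genes, 11 of 11 passing probes were under 0, from -0.62 to -0.31, against 47.7% of all tested probes (median 0.01). Of these 11 probes 3 had an unadjusted limma p under 0.05, where 5.13% of all tested probes were lower at that level. For M+V minus 4 weeks 13 of the 16 were under 0, and for control minus 4 weeks 3 of the 16, with medians of -0.34 and 0.26. Of the 11 probes of the unpicked genes 8 and 3 were under 0, against 49.2% and 50.2% of all tested probes. Probes of 1 gene and arrays shared between comparisons are not independent, so these counts describe the members and are no test. Among the 11 probes that did not pass, Kcna2 probe 1422197_at went the other way from its lead probe, with a mean of 4.67 in M+V-treated, 3.12 in control and 4.91 in 4-week cochleae (adjusted p = 0.682 for M+V minus control in the limma fit without a filter).

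**Figure D2:**
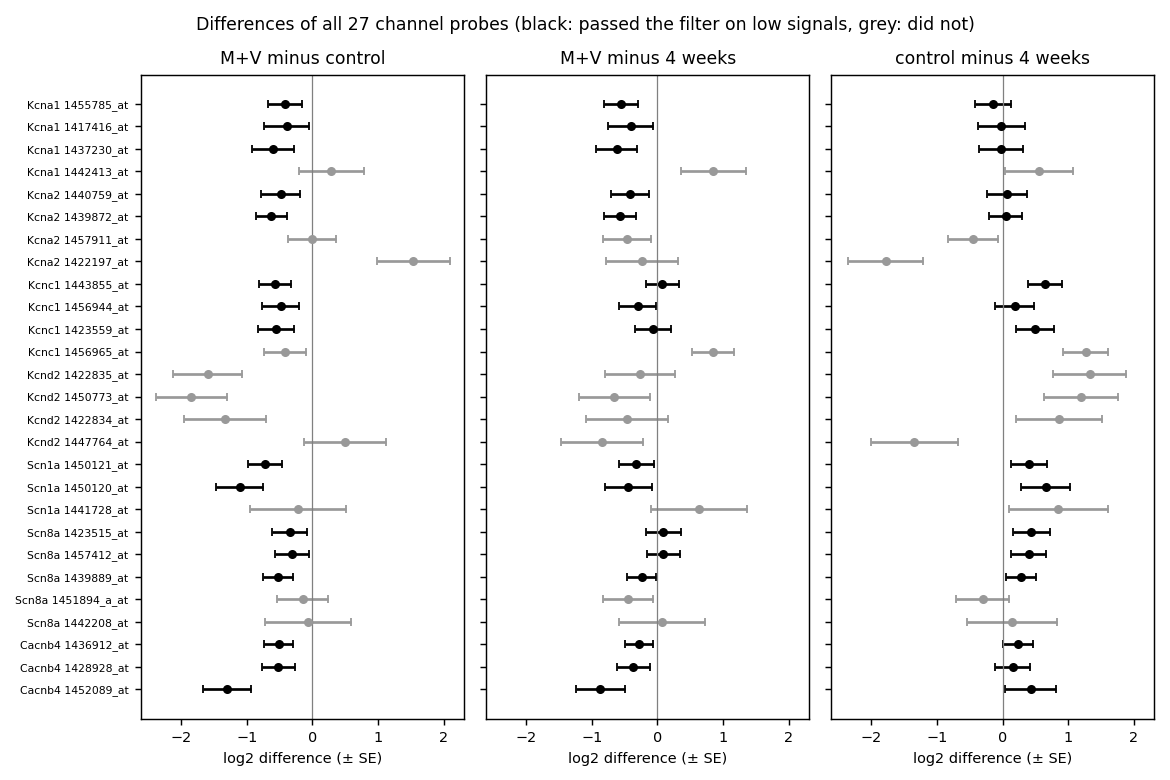
Difference of group means on the log2 scale, with its SE, for all 27 probes in the 3 comparisons; black probes passed the filter on low signals and grey ones did not. Every black point of M+V minus control lies left of 0, among them those of Scn1a and Cacnb4, which were picked for lower levels there. Most black points of control minus 4 weeks lie right of it.

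M+V replicates 1 and 2 were low for most of these probes. These 2 arrays were the 2 lowest M+V arrays in 11 of the 16 passing probes, against 15.8% of all tested probes, and the 2 lowest of all 16 arrays in 9, against 6.22%. The 16 include probes of the picked Scn1a and Cacnb4. For the lead probes of these genes the lowest M+V arrays were instead replicates 2 and 6, at 8.24 and 9.10 for Scn1a and 8.19 and 8.58 for Cacnb4. M+V replicates 1 and 2 are also the 2 M+V arrays with the high bioB level. Within the low bioB level, 4 M+V against 4 control arrays, the difference was -0.05 for Kcna1, -0.03 for Kcna2, -0.17 for Kcnc1 and -0.04 for Scn8a (exact permutation p = 0.8, 0.886, 0.314 and 0.914, where the smallest possible is 0.0286). For the picked members, given as a description, it was -0.74 for Kcnd2, -0.41 for Scn1a and -0.24 for Cacnb4, against -1.59, -0.72 and -0.52 over all arrays. Without M+V replicates 1 and 2, a choice made after seeing the data, M+V minus control was -0.92 for Kcnd2, -0.50 for Scn1a, -0.31 for Cacnb4, -0.22 for Kcnc1, -0.067 for Kcna1, -0.038 for Kcna2 and 0.027 for Scn8a. Within the high bioB level, M+V replicates 1 and 2 against control replicate 1 alone, it was -3.68 for Kcnd2, -1.55 for Scn1a and -1.22 for Cacnb4, and against the 4-week arrays of that level Kcna2 was lower by limma (-1.31, SE 0.25, adjusted p = 0.0283), a call that rests on those 2 M+V arrays and in a fit that called 3.22% of all tested probes lower. With the bioB level as a block the members' differences for M+V minus control were -1.47 for Kcnd2, -0.69 for Scn1a, -0.48 for Cacnb4, -0.50 for Kcnc1, -0.37 for Kcna2, -0.33 for Kcna1 and -0.24 for Scn8a, with 0 of the 4 tested members called.

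Markers of neurons moved with the Kv1 genes. The mean log2 signal over the 12 general neuron genes, which hold neurofilaments such as Nefl and synaptic genes such as Snap25, was 10.12, 9.68, 11.20, 10.98, 10.87 and 10.41 in M+V replicates 1 to 6, against 11.14, 10.80, 11.26, 10.48 and 11.22 in control replicates 1 to 5, and 10.33 to 11.25 at 4 weeks. The 2 lowest were again M+V replicates 1 and 2, which also had the lowest means over the 5 Schwann cell genes, 9.43 and 8.76, against 9.81 or more in every other array. All 12 neuron genes were under 0 for M+V minus control, with a median of -0.41 and 0 called. Their summed signal ranged from 22407 to 59362 in M+V-treated, from 39474 to 58264 in control and from 35712 to 61683 in 4-week cochleae. With the neuron mean as a covariate, a fit chosen after seeing the data, M+V minus control was 0.02 for Kcna1, 0.02 for Kcna2, 0.09 for Scn8a and -0.21 for Kcnc1, against -1.12 for Kcnd2, -0.32 for Scn1a and -0.18 for Cacnb4.

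Kcnd2 ran with the mean over a list of genes chosen as markers of cerebellar and brainstem neurons. The mean over the 13 genes of that list on the array was 6.53, 6.88, 7.22, 6.64, 6.87 and 7.87 in M+V replicates 1 to 6, against 7.61, 8.57, 7.67, 6.62 and 8.18 in control replicates 1 to 5, and 6.50 to 6.82 at 4 weeks. The 5 arrays with a mean of 7.61 or more, control replicates 1, 2, 3 and 5 and M+V replicate 6, were the 5 arrays with a Kcnd2 signal of 7.64 or more, while the other 11 had Kcnd2 signals of 4.52 to 6.90.
The summed signal of the list ranged from 3846 to 6473 in M+V-treated, from 3977 to 9729 in control and from 3789 to 7980 in 4-week cochleae, and 6 of the 13 genes passed the filter. Its genes include Gabra6, a GABA receptor subunit of cerebellar granule cells, and Slc6a5, the transporter of glycinergic neurons, both named here after their values were seen, as the 2 with the largest differences for M+V minus control; neither passed the filter, at means of 5.97 and 4.08. Of the 13 genes 11 were under 0 for M+V minus control, with Cbln3 near 0 at -0.05, and Zic2 at 0.22 and Pcp2 at 0.29 went the other way. Gabra6 had 2.31, 4.22, 5.94, 6.04, 5.87 and 8.42 in M+V replicates 1 to 6, against 5.97, 9.95, 8.01, 4.58 and 9.51 in control replicates 1 to 5, and 3.12 to 5.57 at 4 weeks. Slc6a5 had 6.03 to 8.72 in control replicates 1, 2, 3 and 5 and 6.32 in M+V replicate 6, and 4.54 or less in every other array. The Purkinje cell gene Pcp2 had a mean of 5.12, under the array median.
With the mean of this list as a covariate, also chosen after seeing the data, the Kcnd2 difference was -0.69 for M+V minus control, -0.69 for M+V minus 4 weeks and -0.00032 for control minus 4 weeks, against -1.59, -0.27 and 1.33 without it. With the oligodendrocyte and astrocyte mean as a covariate, M+V minus control was -0.53 for Kcnd2, -0.47 for Scn1a and -0.34 for Cacnb4. That mean was 7.92, 7.96, 8.74, 8.47, 7.89 and 9.18 in M+V replicates 1 to 6, against 9.25, 8.95, 8.83, 8.33 and 9.11 in control replicates 1 to 5. Control replicate 4, the lowest control array for 6 of the 7 members (all except Scn8a), was the lowest control array for this mean, for the cerebellar and brainstem list and for the neuron list. The part of these cell types in the channel differences was not tested. The covariate fits are no such test, since each covariate was measured on the same arrays and was itself lower on average in M+V-treated than in control cochleae. The neuron and the cerebellar and brainstem covariates were also chosen after seeing the data.

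**Figure D3:**
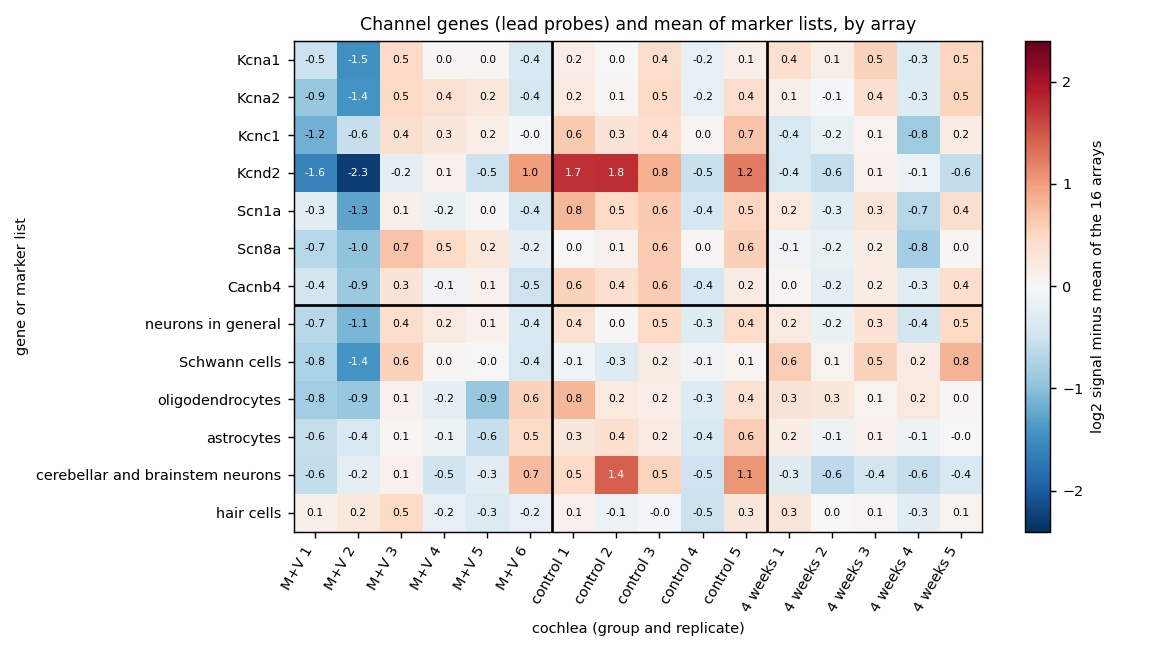
Log2 signal minus the mean of the 16 arrays for the lead probe of each channel gene (above the line) and for the mean of 6 marker lists (below it); columns are cochleae, with M+V, control and 4 weeks from left to right. The row of Kcnd2 is highest where the row of cerebellar and brainstem neurons is highest, and the rows of Kcna1 and Kcna2 are lowest in M+V replicates 1 and 2, as are the rows of neurons and Schwann cells.

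**Figure D4:**
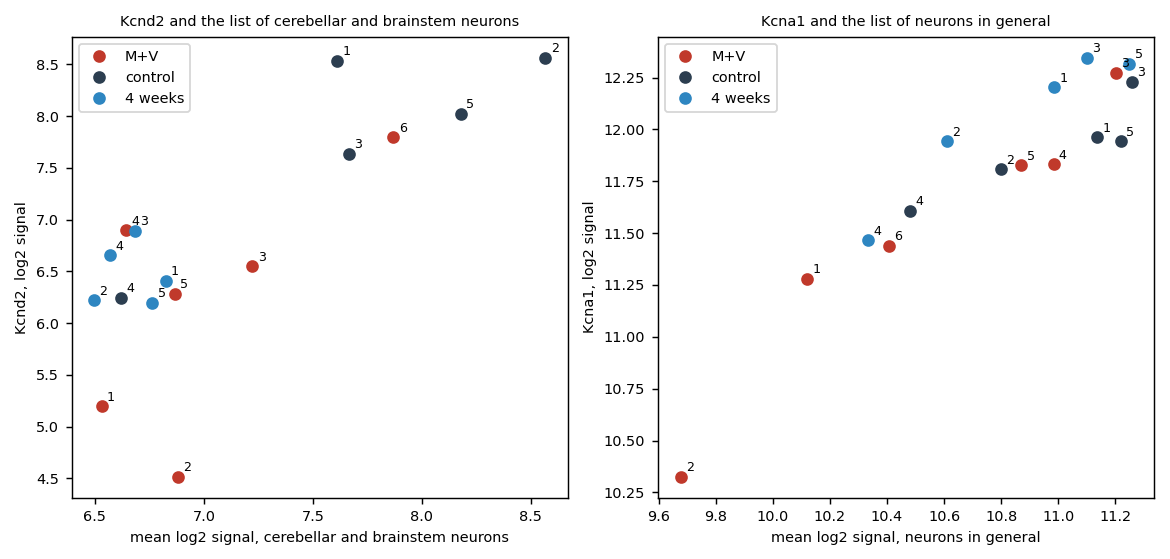
Log2 signal of the Kcnd2 lead probe against the mean log2 signal of the cerebellar and brainstem neuron list (left) and of Kcna1 against that of the general neuron list (right), 1 point per cochlea with its replicate number. On the left 4 control arrays and M+V replicate 6 stand apart at a list mean of 7.61 or more, and on the right M+V replicates 1 and 2 lie at the low end of both axes.

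Genes whose pattern over the 16 arrays was most like a member's were found by Pearson's r among 11449 genes with a passing probe, as a description. Kcnd2 was nearest to Adgrb3 (r = 0.92), an adhesion receptor of synapses, Sphkap (r = 0.92) and Cnr1 (r = 0.87), the cannabinoid receptor. Without M+V replicates 1 and 2 these were 0.85, 0.87 and 0.88. Kcna1 was nearest to Ank2 (r = 0.95), the axonal scaffold ankyrin-B, Art3 (r = 0.95) and Cacna2d3 (r = 0.94). Kcna2 was nearest to Gm13629, Zdhhc17 and Plekhd1 (r = 0.97, 0.97 and 0.96), and Kcnc1 to Vps13c, Pclo and Ina (r = 0.92, 0.91 and 0.91), of which Pclo is a scaffold of the presynaptic active zone and Ina a neurofilament. Scn8a was nearest to Prkar1b, Snap91 and Pcsk1n (r = 0.97 each). Scn1a and Cacnb4 were each among the other's 3 nearest genes, at r = 0.94 and 0.92 without M+V replicates 1 and 2; the others were Plcxd2 (0.96) and Nap1l2 (0.94) for Scn1a and Mllt11 (0.94) and Camta1 (0.93) for Cacnb4.
Among the members themselves r ran from 0.49 for Kcnd2 with Kcna1 to 0.94 for Kcna1 with Kcna2 and for Scn1a with Cacnb4. Without M+V replicates 1 and 2 the Kv1 pair remained at 0.85, whereas Kcnd2 with Kcna1 came to -0.16 and Kcnd2 with Kcna2 to 0.01. These values share arrays, among them the 2 M+V arrays that were low for most members, and Kcnd2, Scn1a and Cacnb4 also share the way they were picked.

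The partners and relatives of these channels were counted from 8 lists of other voltage-gated channel subunits and of anchoring proteins, 88 genes on the array of which 38 passed the filter. For M+V minus control 0 of the 38 were called higher or lower after adjustment, 33 were under 0 and the median was -0.28. Over all tested probes 47.7% were under 0 and the median was 0.01, and the 12 general neuron genes were all under 0 with a median of -0.41. At the cutoffs the study used, a fold above 1.5 and an unadjusted p under 0.05, 5 were lower and 0 higher, where the background was 1.34% lower and 0.196% higher. The 5 were Kcnq3 (-0.62, SE 0.23), a subunit of the M current, Kcnip4 (-0.72, SE 0.30), a partner of Kv4 channels, Scn2a (-0.89, SE 0.33) and Scn2b (-0.59, SE 0.27), a sodium channel alpha and a beta subunit, and Cntn2 (-0.73, SE 0.27), which anchors Kv1 channels beside the node. Their adjusted p ranged from 0.458 to 0.505, so no call was made. By list, 5 of 6 tested potassium channel alpha subunits, 5 of 7 of their auxiliary subunits, 5 of 6 sodium channel beta subunits and Fgf partners, 6 of 6 calcium channel auxiliary subunits and 8 of 8 node and juxtaparanode anchors were under 0, as were both tested sodium channel alpha subunits, while the 2 tested calcium channel alpha1 subunits, Cacna1d at 0.06 and Cacna1g at -0.0010, lay near 0.

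For M+V minus 4 weeks 2 of the 38 were called, both lower, a share near the background of 3.20% lower and 2.08% higher over all tested probes. Fgf13, an intracellular partner of sodium channels, had 7.78, 8.57, 8.40, 8.57, 8.32 and 8.58 in M+V replicates 1 to 6, against 10.24, 9.01, 9.41, 9.46 and 10.25 at 4 weeks, so the groups did not overlap (2.76% of all tested probes did not overlap in that direction). The difference was -1.30 (SE 0.28, adjusted p = 0.0133 by limma). The control arrays lay between, at 7.99 to 9.49, with control minus 4 weeks at -0.87 (SE 0.29, adjusted p = 0.175) and M+V minus control at -0.44 (SE 0.28, adjusted p = 0.617). Cacna2d1, an alpha2delta subunit of calcium channels, had 9.48, 9.38, 9.79, 9.28, 9.49 and 9.70 in M+V replicates 1 to 6, against 10.13, 9.94, 9.95, 9.87 and 10.03 at 4 weeks, again without overlap, and was lower by -0.46 (SE 0.12, adjusted p = 0.0322 by limma).
Cacna2d1 lost its call when any of 4-week replicates 1, 2, 4 or 5 or M+V replicates 2, 4 or 5 was left out, and Fgf13 kept its call without each array in turn. With the oligodendrocyte and astrocyte mean as a covariate neither was called. With the bioB level as a block Fgf13 was called (-1.25, SE 0.36, adjusted p = 0.0475 by limma) and Cacna2d1 was not. For control minus 4 weeks 0 of the 38 were called, and Kcnab2, the Kv beta2 subunit, had the one rise with an unadjusted p under 0.05 (0.44, SE 0.20, adjusted p = 0.346 by limma). Age and the bioB level cannot be told apart in either comparison beyond the high-bioB arrays of the older groups, 2 M+V arrays and 1 control array.

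**Figure D5:**
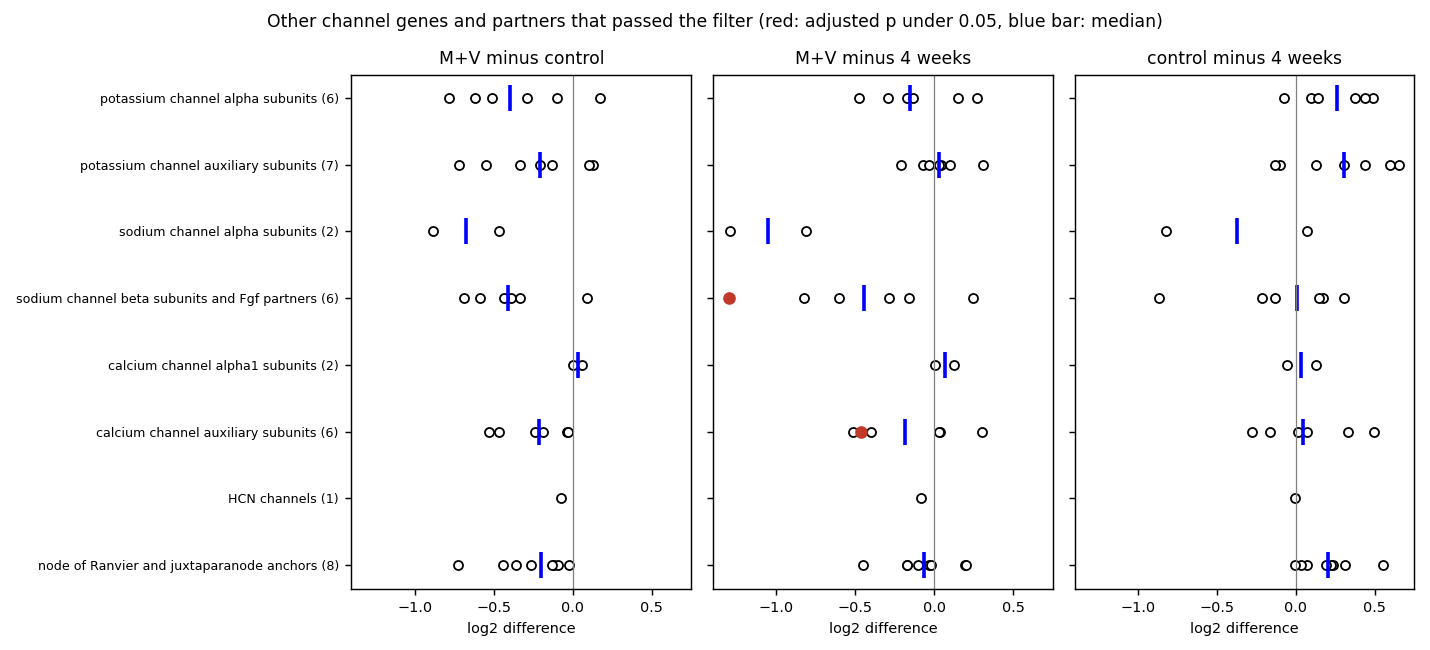
Log2 difference of each other channel gene or partner that passed the filter, by list with the number of genes, in the 3 comparisons; the blue bar is the list's median and red points had an adjusted p under 0.05. The red points are Fgf13 and Cacna2d1 in M+V minus 4 weeks. For M+V minus control 33 of 38 points lie left of 0, against 47.7% of all tested probes.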

How the data were processed

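RNA of the whole left cochlea of each mouse was hybridised to 1 array. The authors made signals from the scans by MAS5 in GCOS (versions not given in the sources used here) and then applied quantile normalization over the arrays. The deposited values are these signals on the log2 scale; quantile normalization fixes the distribution, so a difference is relative to the other probes of its array. Signals under 1 were set to 1 (0.869% of values), and 64 control probes were left out. The methods kept probes called present; those calls were not used here, and the filter on the array median stands in their place. Gene names come from the array annotation. 1 mean per group was fitted to all 16 arrays with limma 3.58.1 in R 4.3.3 (lmFit, contrasts.fit, eBayes), two-sided, with Benjamini-Hochberg adjustment and a threshold of 0.05; probes that failed the filter were read from the same fit over 45037 probes. The fit was tested on simulated data. The methods' t-test, exact permutation tests, other scalings and filters, covariates, blocks and leaving out each array were tried. The number of arrays limits the precision, and the p-values measure the spread between mice of 1 strain.

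The members and the gene lists were chosen with earlier results of these data known. All probes of the 7 members were read, with the brightest on average as lead probe; of the other lists, genes called or with the largest limma statistic were named (at most 6 called or 3 others a list), of the marker lists at most 4 bright genes beyond defining ones, and the 3 genes most like each member by Pearson's r. Besides the lists in the report, lists of spiral ganglion neurons, hair cells, cochlear epithelium and ligament, and skeletal muscle were measured: for M+V minus control their medians were -0.07, 0.09, 0.07 and -0.80 (4, 6, 8 and 1 genes tested), with 0 called in each. For the lists of oligodendrocytes, astrocytes and Schwann cells they were -0.51, -0.28 and -0.28 (7, 6 and 5 tested), and for that of cerebellar and brainstem neurons -0.29 (6 tested), also with 0 called. The 3 lists of HCN channels, calcium channel alpha1 subunits and sodium channel alpha subunits had 1, 2 and 2 genes tested.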

Additional observations from a re-analysis of the deposited data

Results flagged for a closer look

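4 values lay far from the rest of their group, by the gap to the nearest array over the group's range, among 48 groups of values checked, of which chance sets about 1 in 20 apart. Control replicate 4 was low for Scn1a on both passing probes, at 9.10 on 1450121_at, where the other control arrays had 10.00 to 10.31, and at 7.10 on 1450120_at, where they had 8.12 to 8.29. It was low for Cacnb4 probe 1452089_at as well, at 7.13, where the other control arrays had 7.96 to 8.26. Without that array M+V minus control was -0.93 for Scn1a, -0.68 for Cacnb4 and -1.98 for Kcnd2, against -0.72, -0.52 and -1.59 with it. Without M+V replicates 1 and 2 instead they were -0.50, -0.31 and -0.92. 4-week replicate 4 was low for Kcnc1 probe 1456944_at, at 7.26, where the other 4-week arrays had 8.05 to 8.36.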

How the results depend on the processing

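None of Kcna1, Kcna2, Kcnc1 and Scn8a was called in any comparison under any alternative, with 1 exception, Kcna2 for M+V minus 4 weeks over the high-bioB arrays (1 call, -1.31). Of the other channel genes, calls for M+V minus control came to 1 over the high-bioB arrays (Scn2a, among 14 probes called in all) and 0 otherwise. For M+V minus 4 weeks, 2 in the main fit, they came to 0 without the filter, by the methods' t-test and with the oligodendrocyte and astrocyte covariate, to 1 with the 75th percentile filter, to 1 without M+V replicates 1 and 2 together (Fgf13) and to 1 to 2 with single arrays left out. Over the high-bioB arrays Cacna2d3, Cacna2d1 and Scn2a differed by -1.15, -0.56 and -1.40. Calls with the bioB level as a block were Fgf13, Cacna2d3 and Kcnq3, all lower. With the neuron covariate they were Fgf13, lower, and Kcnab2, higher (0.51, SE 0.13, adjusted p = 0.0329 by limma). For control minus 4 weeks they came to 1 with only the compared groups (Cntn2), over the high-bioB arrays (Scn2a) and without M+V replicates 1 and 2 (Cntn2). Leaving out both of these replicates and the covariates of the neuron and of the cerebellar and brainstem lists were chosen after seeing the data. The causes of these changes were not tested.

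The sign changed in the following. Kcnd2, M+V minus 4 weeks: 0.11 with array weights, 0.56 with the oligodendrocyte and astrocyte covariate, 0.074 with the neuron covariate, 0.41 without M+V replicates 1 and 2, and -0.59 to 0.070 with single arrays left out (0.070 without M+V replicate 2). Control minus 4 weeks came to -0.00032 for Kcnd2, -0.027 for Cacnb4 and -0.15 for Kcna2, and M+V minus 4 weeks to -0.028 for Kcnc1, with the cerebellar and brainstem covariate. With the neuron covariate M+V minus control was 0.020 for Kcna1, 0.018 for Kcna2 and 0.090 for Scn8a, and control minus 4 weeks -0.076 for Kcna2. Without M+V replicates 1 and 2, M+V minus control was 0.027 for Scn8a and M+V minus 4 weeks 0.027 for Kcna2. With the bioB level as a block, control minus 4 weeks was -0.59 for Kcna2 and -0.22 for Scn8a, and M+V minus 4 weeks -0.30 for Kcnc1 and -0.46 for Scn8a, against -0.62 and -0.66 for the same 2 genes over the high-bioB arrays. The Gapdh covariate gave Kcna2 -0.064 for control minus 4 weeks. Single arrays left out gave a range of -0.048 to 0.17 for Kcna2 in control minus 4 weeks, and of -0.080 to 0.27 for Kcnc1 and -0.072 to 0.27 for Scn8a in M+V minus 4 weeks.

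By probe, M+V minus control was 0.50 for Kcnd2 1447764_at, 0.29 for Kcna1 1442413_at and 1.54 for Kcna2 1422197_at, with 0.11 for the mean over the Kcna2 probes. M+V minus 4 weeks was 0.85 for Kcna1 1442413_at, 0.63 for Scn1a 1441728_at, -0.062 and -0.30 for Kcnc1 1423559_at and 1456944_at, -0.24 and -0.45 for Scn8a 1439889_at and 1451894_a_at, and -0.089 for the mean over the Scn8a probes. Control minus 4 weeks was -1.34 for Kcnd2 1447764_at, 0.56 for Kcna1 1442413_at (0.095 for the mean over its probes), -1.78 and -0.45 for Kcna2 1422197_at and 1457911_at (-0.53 for the mean) and -0.30 for Scn8a 1451894_a_at.

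For the 15 pairs of arrays that share a replicate number across groups, deviations from the group means had correlations of -0.061 to 0.28. Their median was 0.01, against -0.019 for the other pairs, and 6 of the 15 were over 0.1. Whether the numbers pair samples cannot be decided from these values, since no share over 0.1 is at hand for the other pairs. With the replicate number as a block, 0 tested members and 2 other channel genes, both in M+V minus 4 weeks, were called, and the call counts over all probes came to 710 and 166 for M+V and control minus 4 weeks, against 1129 and 295.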
